A study of Mus musculus with 4 samples.

Results

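Cycling beta cells are insulin cells that carry RNA of the late cell cycle, and 90 of them were found among 8088 beta cells in 4 libraries of mouse pancreatic islet cells. Beta cells were barcodes with under 10% mitochondrial UMIs (unique molecular identifiers, each standing for 1 captured RNA molecule), 3000 to 50000 UMIs and 2000 to 5000 genes, in which Ins1 and Ins2 made up at least 5% of UMIs and Gcg, Sst and Ppy each under 1%. A beta cell was called cycling when it held a UMI of at least 3 of the 8 genes Mki67, Top2a, Cdk1, Birc5, Cenpf, Nusap1, Ube2c and Cdc20. The other 7998 beta cells of the same libraries served as comparison. The cells were chosen by the UMIs of these 8 genes, whose levels are therefore a description, without a test.

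The islets came from male C57BL6/N mice, either wildtype littermates (WT) or homozygous carriers of a knock-in allele at the endogenous Pax4 locus (HH). Mice fed chow (SCD) were 12 weeks old, and mice fed a high-fat diet (HFD) for 4 weeks were 16 weeks old. The allele is a germline one and is not restricted to beta cells. Each of the 4 groups was 1 droplet library made from pooled islets of a few mice. Library cannot be told apart from group, nor diet from age, and with no replicate within a group the groups were not tested against each other. Intervals are 95% ones of counting error alone.

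Adult beta cells divide rarely, and their division rises in pregnancy and obesity. A dividing cell passes from G1, in which D cyclins with Cdk4 relieve the block set by the retinoblastoma protein, through S phase, in which E2F factors switch on the genes of DNA synthesis, to G2 and mitosis, in which Cdk1 with B cyclins condenses the chromosomes and builds the spindle. Genes of the last steps share promoter elements, the CCAAT box and the cell cycle genes homology region (CHR). Through the CHR, the DREAM complex represses them in resting cells, and MuvB with B-Myb and FoxM1 activates them late in the cycle.

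The libraries held 4665 to 7123 barcodes and 68011082 to 104810105 UMIs. Between 2032 and 4385 barcodes passed the filter, and 1150 to 2892 of these were beta cells. Each library shared 21 to 29 barcodes with another library, and no cycling cell carried a shared barcode. Pax4 had 0 UMIs in the beta cells of every library, so the allele could not be checked from these counts. In the 57 cycling cells of HH HFD, a count of 0 allows a level of up to 1.80 CPM, the UMIs of a gene scaled to a common total.

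Cycling cells were rare in every library and most frequent in the HH HFD library. In the WT SCD library 8 of 2056 beta cells met the rule, a share of 0.389% (exact Clopper-Pearson interval 0.168% to 0.765%). HH SCD had 16 of 1990, a share of 0.804% (0.460% to 1.3%). WT HFD had 9 of 1150, a share of 0.783% (0.358% to 1.48%), and HH HFD 57 of 2892, a share of 1.97% (1.5% to 2.55%). The HH HFD interval lay above that of each other library, and the intervals of the other 3 overlapped. HH exceeded WT by 1.19 percentage points on HFD (0.344 to 1.90, the 2 exact intervals combined) and by 0.415 points on SCD (-0.0947 to 0.960), so only the interval on HFD excluded 0. With all cells removed that held 3 or more UMIs of markers of other cells, which leaves 2168 beta cells, the HFD difference was 0.526 points (-1.43 to 1.59). It then rested on 1 cycling cell in WT HFD and 7 in HH HFD. With only markers rare in beta cells used, a setting chosen after the data were seen, 7938 beta cells were left. The HFD difference was then 1.12 points (0.270 to 1.85). With at least 2 of the 8 genes in place of 3, the SCD difference was 0.671 points (0.0684 to 1.31). No cycling cell was called a doublet, and the caller marked 102 cells in all where 348 were expected. The HH HFD library gave 63.3% of all cycling cells.

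The share depended on depth and on the upper bounds of the filter. After each cell was thinned to 3000 UMIs, 4, 8, 1 and 24 cells still met the rule in the 4 libraries, in the order WT SCD, HH SCD, WT HFD and HH HFD that is kept for all lists of 4 values. The thinned share was 0.195%, 0.402%, 0.0870% and 0.830%, with the highest value again in HH HFD. Beta cells left out for exceeding 50000 UMIs or 5000 genes met the rule in 59 of 458 cells, or 12.9%. Of these larger cells, 9.80%, 11.3%, 6.11% and 28.6% met it in the 4 libraries. With them included, the shares rose to 0.834%, 1.16%, 1.5% and 2.90%, and HH exceeded WT by 0.330 points on SCD (-0.306 to 0.988) and by 1.40 points on HFD (0.409 to 2.28).

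**Figure D1:**
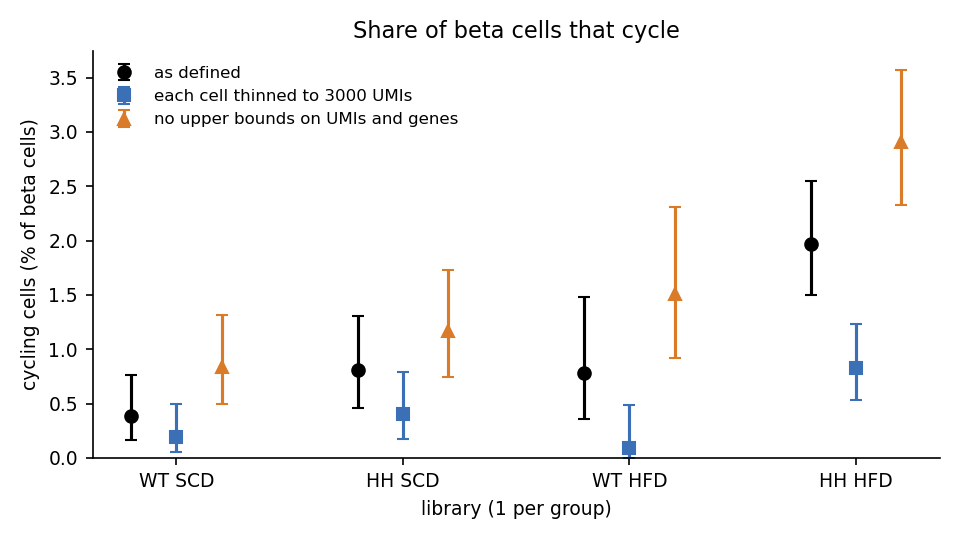
Share of beta cells that met the cycling rule (y axis, %) in each of the 4 libraries (x axis), as defined (circles), after thinning each cell to 3000 UMIs (squares) and without upper bounds on UMIs and genes (triangles); bars are exact 95% intervals of counting error. HH HFD was highest in all 3 versions, at 1.97%, 0.830% and 2.90%.

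The rule was also applied to the other endocrine cells of the same libraries, which had lower depth. Of alpha cells, with at least 5% of UMIs from Gcg and under 5% from insulin, 2 of 1316 did, or 0.152%. Of delta cells, defined likewise by Sst, 2 of 499 did, or 0.401%. Their median depth was 8141 to 15662 UMIs, against 24254.5 to 29868.5 UMIs in beta cells. After thinning of all classes to 3000 UMIs, the beta cell share was 0.457% and the other values were the same as before. The order differed between libraries. In WT SCD, 1 of 135 delta cells met the rule (0.741%), above the beta cell share of 0.389%, or 0.195% after thinning, and in HH SCD 2 of 378 alpha cells did (0.529%), below the beta cell share of 0.804% but above its 0.402% after thinning. No test of these differences was made.

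The 8 genes were nearly silent in the other beta cells. Mki67, a protein that coats mitotic chromosomes, was found in 86 of the 90 cycling cells and in 1.60% of other beta cells. Its level in cycling cells was 396, 197, 161 and 230 CPM, against 0.410 to 0.993 CPM in the other beta cells. Cenpf, a kinetochore protein, was found in 80 cycling cells, Ube2c, the ubiquitin-conjugating enzyme of the anaphase-promoting complex, in 65, and Cdk1, the kinase of mitotic entry, in 62. Top2a, which untangles DNA, was found in 59 and Birc5, the survivin subunit of the chromosomal passenger complex, in 58. Cdc20, which activates the anaphase-promoting complex, was found in 45 and Nusap1, a spindle protein, in 35. All 8 genes were present together in 22 cells. Just inside the threshold, 20 cells held exactly 3 of the genes. Just outside it, 35 beta cells held 2.

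The promoters of these genes shared sequence elements. Of the 8 RefSeq promoter windows of the genes (GRCm38.p6, 300 bases each, for 60.4% of all windows running from 250 before to 50 after the gene start in the annotation used), 7 held a CHR match, spelled TTTGAA or TTTAAA on either strand, and 6 held a CCAAT match, against 27.6% and 37.4% of all 32851 promoters of that length. Both motifs were present in 6 of the 8 and in 10.7% of all promoters. In the list of 50 G2 and mitosis genes, 39 genes matched, with 42 promoters, of which 81.0% held CHR and 76.2% CCAAT. In the list of 44 S phase genes, 35 matched, also with 42 promoters, of which 26.2% held CHR and 57.1% CCAAT. The E2F spellings TTTCCCGC, TTTGGCGC, TTCCCGCC and TTGGCGCC, on either strand, were present in 40.5% of the S phase promoters, in 2.38% of the G2 and mitosis promoters and in 3.77% of all promoters. A TTGGCGCC match can overlap a CCAAT match on the other strand. The shares are a description, and a match is not a bound site. Shown are 3 promoters of genes used to find the cells, and that of Mcm5, a subunit of the replicative helicase, as an S phase gene. Sequences run 5′ to 3′ on the strand of the gene, with all CHR, CCAAT and E2F matches in capitals. The windows are chr10:69352863-69353162 (minus strand) for Cdk1, chr11:99024140-99024439 (minus strand) for Top2a, chr2:164769679-164769978 (plus strand) for Ube2c and chr8:75109259-75109558 (plus strand) for Mcm5.
Cdk1: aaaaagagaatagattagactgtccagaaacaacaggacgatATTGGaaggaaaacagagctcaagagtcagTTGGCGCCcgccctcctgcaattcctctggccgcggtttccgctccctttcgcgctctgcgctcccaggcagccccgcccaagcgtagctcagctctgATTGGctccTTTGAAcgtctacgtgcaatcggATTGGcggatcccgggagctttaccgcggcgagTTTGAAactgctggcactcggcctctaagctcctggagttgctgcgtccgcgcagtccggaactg
Top2a: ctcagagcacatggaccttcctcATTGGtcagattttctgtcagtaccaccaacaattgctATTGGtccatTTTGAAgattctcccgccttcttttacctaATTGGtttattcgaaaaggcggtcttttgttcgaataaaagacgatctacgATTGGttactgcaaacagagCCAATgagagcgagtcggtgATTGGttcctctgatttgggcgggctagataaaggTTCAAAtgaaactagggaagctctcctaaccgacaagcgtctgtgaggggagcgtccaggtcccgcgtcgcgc
Ube2c: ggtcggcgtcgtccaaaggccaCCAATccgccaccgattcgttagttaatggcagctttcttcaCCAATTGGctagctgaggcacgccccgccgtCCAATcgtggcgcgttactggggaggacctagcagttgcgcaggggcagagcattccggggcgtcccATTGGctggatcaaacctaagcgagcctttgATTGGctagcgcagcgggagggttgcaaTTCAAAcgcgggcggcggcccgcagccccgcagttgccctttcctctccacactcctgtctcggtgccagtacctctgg
Mcm5: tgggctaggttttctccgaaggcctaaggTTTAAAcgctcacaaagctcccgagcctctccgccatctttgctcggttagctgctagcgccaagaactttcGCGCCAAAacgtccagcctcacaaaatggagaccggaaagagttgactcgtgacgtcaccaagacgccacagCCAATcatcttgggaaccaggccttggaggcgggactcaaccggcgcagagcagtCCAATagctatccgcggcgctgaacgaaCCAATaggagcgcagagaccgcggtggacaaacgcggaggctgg
Cdk1 held 2 CHR, 3 CCAAT and 1 E2F match, Top2a 2 CHR and 6 CCAAT matches, Ube2c 1 CHR and 6 CCAAT matches, and Mcm5 1 CHR, 3 CCAAT and 1 E2F match.

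The cells that met the rule carried many further cell cycle genes, which mark the same state as the rule and are given without a test. Summed over 50 G2 and mitosis genes, the level was 6596, 4469, 2444 and 4263 CPM in cycling cells, against 317 to 346 CPM in the other beta cells. Summed over 44 S phase genes, it was 2100, 1445, 1036 and 1174 CPM in the same order, against 156 to 167 CPM. Cycling and other cells did not overlap between libraries in either list. The WT HFD library, with 9 cycling cells, was lowest in both.

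Levels of both lists were highest in cells with 5 or more rule genes in the pool of libraries, and the values between varied from library to library. Pooled over libraries, the G2 and mitosis level was 326 CPM in the 7568 cells with none of the 8 genes, 357 CPM in 395 cells with 1, 634 CPM in 35 cells with 2, 976 CPM in 20 cells with 3, 1812 CPM in 14 cells with 4 and 6032 CPM in 56 cells with 5 or more. The S phase level went from 159 to 210, 545, 542, 994 and 1606 CPM over the same classes. The S phase value of the 35 cells with 2 genes came mostly from HH HFD, which gave 495 of its 567 UMIs. In that library the S phase level was 789 CPM with 2 genes, 296 CPM with 3 and 762 CPM with 4. With 2 genes it was 170 CPM in HH SCD and 159 CPM in WT HFD, against 895 and 1175 CPM with 3. The only WT SCD cell with 3 rule genes held none of the S phase genes and had a G2 and mitosis level of 202 CPM, below the 321 CPM of cells with none of the 8 genes in that library.

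**Figure D2:**
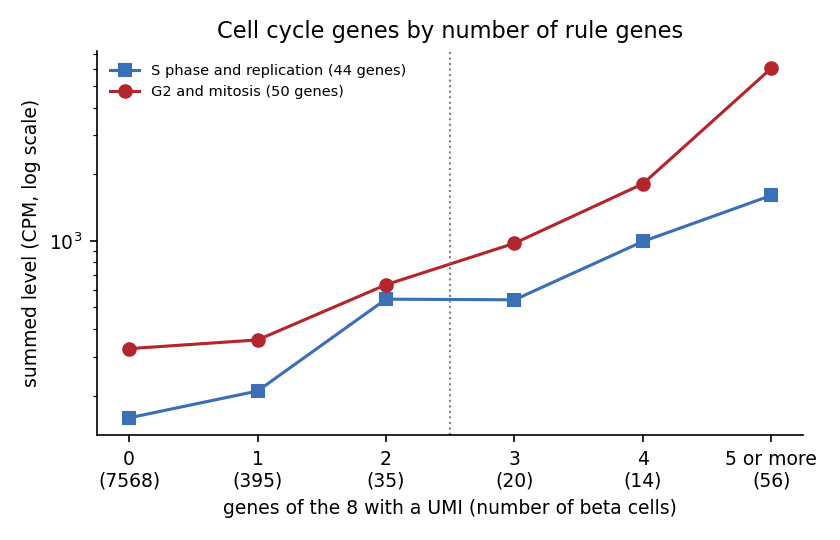
Summed level (y axis, CPM, log scale) of the S phase list (squares) and the G2 and mitosis list (circles) in beta cells of all 4 libraries pooled, by how many of the 8 rule genes had a UMI (x axis, number of cells in brackets); the dotted line is the threshold of the rule. The G2 and mitosis level went from 326 CPM without a rule gene to 6032 CPM with 5 or more.

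Individual cycling cells differed in how much of each phase list they held. At least 10 of the 50 G2 and mitosis genes were present in 76 of 90 cycling cells (84.4%) and in 18 of 7998 other beta cells (0.225%). At least 10 of the 44 S phase genes were present in 36 cycling cells (40.0%) and in 89 other beta cells (1.11%). A set of 26 cycling cells held 20 or more S phase genes, together with 9 to 46 G2 and mitosis genes, 54 held fewer than 10 S phase genes, and only 10 lay between. Cells with 20 or more numbered 4 of 8, 6 of 16, 2 of 9 and 14 of 57 in the 4 libraries. The bound of 20 was chosen after the values were seen. The rule is weighted to late genes, and 83 of the 89 other beta cells with at least 10 S phase genes had fewer than 10 G2 and mitosis genes. Such cells with 10 or more S phase genes made up 1.03%, 1.11%, 0.351% and 1.48% of the other beta cells, so that the comparison cells included some with an S phase pattern.

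**Figure D3:**
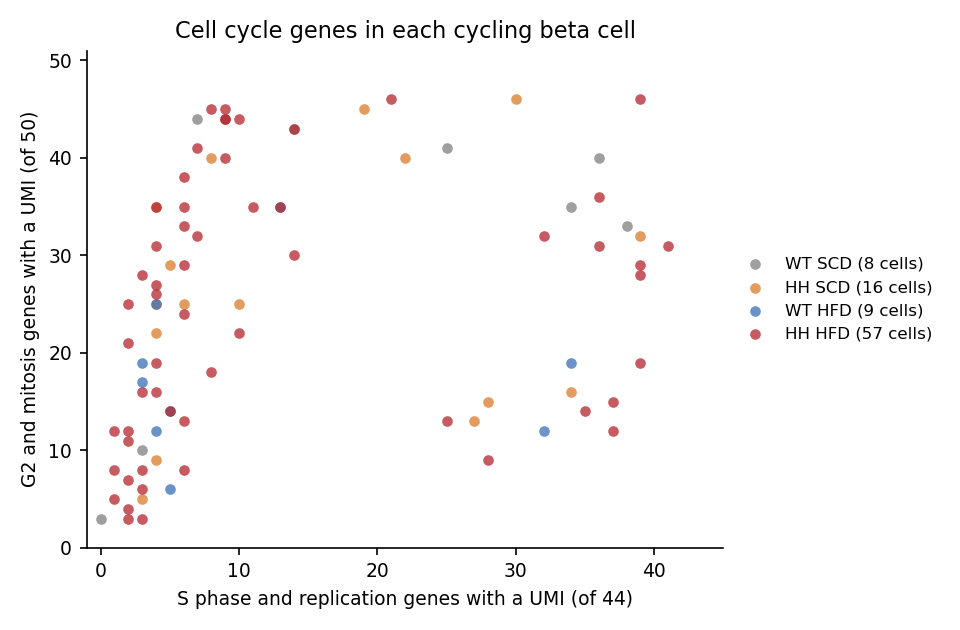
Number of S phase genes (x axis, of 44) and of G2 and mitosis genes (y axis, of 50) with a UMI in each of the 90 cycling beta cells (points), coloured by library. At least 10 G2 and mitosis genes and fewer than 10 S phase genes were held by 41 cells and at least 10 of both by 35, and 26 cells lay at 20 or more S phase genes.

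Cycling cells held more genes and a smaller insulin share than their neighbours. The median number of genes was 4652.5, 4401, 4448 and 4146, against 3888.5, 3714, 4080 and 3416 in the other beta cells, a mean difference of 637 ± 182 (SD, n = 4 libraries). The median share of UMIs from Ins1 and Ins2 was 48.4%, 51.2%, 47.1% and 49.9%, against 54.5%, 56.0%, 55.6% and 55.7%, a mean difference of -6.30 ± 1.53 percentage points (SD, n = 4). The mitochondrial share was 4.97%, 3.78%, 3.36% and 3.07%, against 5.11%, 5.01%, 4.89% and 4.00%. All 4 libraries had the same direction in these 3 measures, for which the exact two-sided paired permutation test gave p = 0.125, the smallest that 4 libraries allow. Median UMIs were higher in cycling cells in 3 of 4 libraries, with a mean difference of 1521 ± 2771 (SD, n = 4, exact permutation p = 0.375). Against the 5 other beta cells nearest in UMIs to each cycling cell, the difference in genes was 598.5 ± 61.4 and that in the insulin share was -6.72 ± 2.27 points.

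Beta cell genes that the rule did not use were found in most cycling cells. Mafa had a UMI in 83 of 90 cycling cells and 92.5% of other beta cells, Ucn3 in 80 and 96.1%, and Slc2a2 in 76 and 93.5%. Levels of markers of other cells follow. The T lymphocyte, stromal, acinar and neutrophil lists stood at 0 to 3.00 CPM in cycling cells. The endothelial list stood at 0 to 46.8 CPM in cycling and 19.8 to 49.2 CPM in other beta cells, and 71 of its 78 UMIs in HH HFD came from 1 cell. The macrophage list stood at 47.4 to 108 CPM in cycling and 51.6 to 65.8 CPM in other cells, and 24 of its 48 UMIs in HH SCD came from 1 cell. The rule capped Gcg, Sst and Ppy, so that low levels of these hormones are no finding. The alpha cell gene Irx1 was at 0 in cycling cells of all 4 libraries. The delta list was highest in WT HFD, at 173 CPM against 49.3 to 75.9 CPM in the other cycling cells. The ductal list stood at 67.5 to 136 CPM against 80.8 to 110 CPM, and the B lymphocyte list at 0 to 17.4 CPM against 8.21 to 23.5 CPM. The Schwann and erythroid lists stood at 0 to 7.67 CPM in cycling cells. The part of these markers in the results was not tested.

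Summed per library, cycling cells were compared with the other beta cells in edgeR's quasi-likelihood test with the library as a block, so that the 4 libraries are the replicates. Among 8336 genes with a mean of at least 5 CPM, the 8 rule genes left out, 692 were higher (8.30% of those tested) and 484 lower (5.81%) at a Benjamini-Hochberg adjusted p under 0.05. The median log2 fold change over all genes was -0.01. Without TMM factors, which balance the libraries on the bulk of genes, the median moved up by 0.20 on the log2 scale and the calls became 1326 higher and 230 lower, that is 85.2% instead of 58.8% of calls in the higher direction. All fold changes are therefore relative to the typical gene. Without the HH HFD library, which holds 63.3% of the cycling cells, 332 genes were higher and 188 lower, and without HH SCD 295 were lower.

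Among called genes with a mean of at least 20 CPM and the same direction in all 4 libraries, the highest fold change was that of Tubb5. Tubb5, a beta tubulin (chromosome 17, 35833921 to 35838306), stood at 814, 401, 169 and 324 CPM in cycling cells and at 34.5, 35.2, 39.6 and 40.4 CPM in the other beta cells. All 4 cycling values lay above all 4 others, and the log2 fold change was 3.18 ± 0.21 (SE, adjusted p = 4.91e-11). H2afz, the histone variant H2A.Z (chromosome 3, 137864487 to 137866922), stood at 1662, 1467, 1197 and 1207 CPM against 177 to 184 CPM (log2 2.72 ± 0.09, adjusted p = 1.2e-16). Its cycling values were again separate from the others in every library. Selenoh, a nuclear selenoprotein (2.88), Tuba1b, an alpha tubulin (2.86), Dek, a chromatin protein (2.36), H1fx, a linker histone (2.28), Hmgn2, a nucleosome-binding protein (2.26), Tmpo, a protein of the nuclear lamina (1.80), and H2afv, a second H2A.Z gene (1.79), rose as well. Prdx4, a peroxiredoxin of the endoplasmic reticulum, rose too (log2 2.04 ± 0.17, adjusted p = 3.52e-09). It stood at 63.3, 80.6, 138 and 121 CPM against 14.7, 16.4, 16.2 and 32.9 CPM. From the cell cycle lists, Cks1b, a Cdk-binding subunit (2.97), Pcna, the sliding clamp of DNA polymerase (2.67), Ube2s, a partner of Ube2c (2.61), and Hmgb2, a DNA-bending protein (2.45), were among the 10 highest with at least 20 CPM. Cks1b, at 16.6, 19.8, 17.2 and 22.7 CPM in the other beta cells, passed that bound only through the cycling cells. Tubulins belong to families of similar sequence, and reads shared between copies make their single values less certain.

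The lowest fold change by the same criteria was that of Hspa1b. Hspa1b, an inducible Hsp70 (chromosome 17, 34956436 to 34959238), stood at 21.1, 20.2, 7.67 and 3.6 CPM in cycling cells and at 122, 81.4, 82.1 and 24.8 CPM in the others. The value fell in every library, with a log2 fold change of -2.74 ± 0.23 (adjusted p = 3.01e-09). Its near-identical copy Hspa1a fell too (-1.66), and reads may be split between both. Cox6a2, the muscle-type subunit of cytochrome c oxidase, stood at 67.5, 101, 49.9 and 36.0 CPM against 257, 222, 253 and 137 CPM (-1.95 ± 0.15, adjusted p = 9.82e-10). Gad1, which makes GABA (-1.75), Defb1, a beta-defensin (-1.68), Rgs11, a regulator of G protein signalling (-1.68), Errfi1, an inhibitor of the EGF receptor (-1.57), Gprasp2, a receptor sorting protein (-1.55), Mvp, the major vault protein (-1.55), and the noncoding RNA Snhg11 (-2.68) fell as well.

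**Figure D4:**
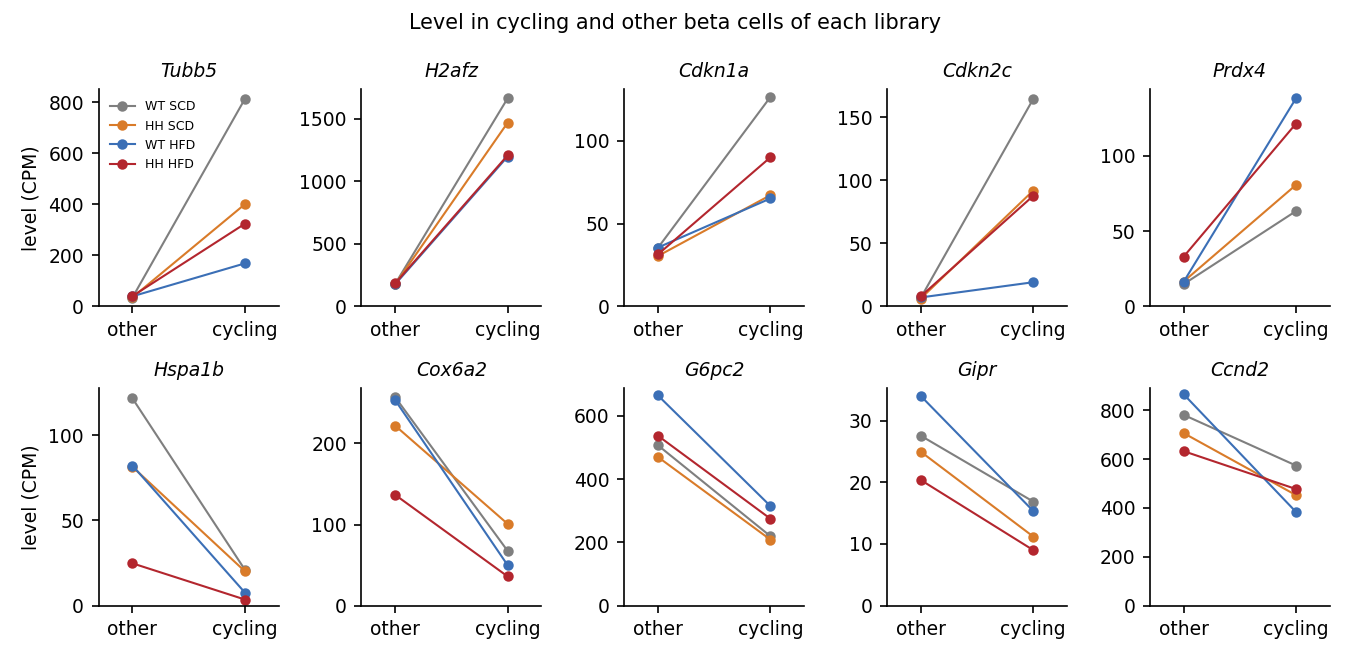
Level (y axis, CPM, from 0) of 10 genes in other and cycling beta cells (x axis), 1 line for each library. The first 5 genes were higher in cycling cells of all 4 libraries and the last 5 lower, with Tubb5 between 169 and 814 CPM in cycling and between 34.5 and 40.4 CPM in other beta cells.

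Few genes of the cell cycle lists passed the expression filter, which took the mean over all beta cells, cycling ones included. They mark the same state as the rule, and their fold changes are a description. Stmn1, which destabilises microtubules (chromosome 4, 134468320 to 134473843), stood at 991, 580, 315 and 501 CPM in cycling cells against 1.22, 1.98, 1.61 and 3.70 CPM (log2 7.84). Tyms, thymidylate synthase, stood at 110, 29.1, 46.0 and 67.3 CPM against 3.93, 3.77, 4.80 and 5.34 CPM (log2 3.52). Both passed the filter only through the cycling cells. Slbp, the histone mRNA binding protein, which passed on its level in the other beta cells as well, had a log2 fold change of 1.46. Pttg1, the securin, had a log2 fold change of -0.48 and an adjusted p of 0.410. Counted without a filter, 42 of 44 S phase genes and 43 of 50 G2 and mitosis genes were higher in all 4 libraries, against 2068 of all 8336 genes tested.

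The Cdk inhibitors Cdkn2c, Cdkn2d and Cdkn1a and the kinase Cdk4 rose, and the cyclins Ccnd2 and Ccnd1 fell. Of 20 G1 regulators, 11 were tested, of which 4 were higher (36.4%, against 8.30% of all genes) and 2 lower (18.2%, against 5.81%). Without TMM factors 7 were higher and 1 lower. Cdkn2c, the Cdk4 inhibitor p18 (chromosome 4, 109660876 to 109667189), stood at 164, 91.8, 19.2 and 87.7 CPM in cycling cells and at 6.76, 6.25, 7.11 and 7.99 CPM in the others (log2 3.43 ± 0.26, adjusted p = 4.77e-10). The lowest cycling value, in WT HFD, still exceeded every other value. Its relative Cdkn2d, p19, rose by 2.59, Cdkn1a, p21, by 1.21 and the kinase Cdk4 by 0.79. The inhibitor Cdkn1b, p27, did not pass the test (log2 0.33, adjusted p = 0.252), and Cdkn1c and Cdkn2a were below the filter. Ccnd2, the main D cyclin of beta cells (chromosome 6, 127125162 to 127152193), stood at 574, 453, 384 and 477 CPM against 781, 707, 866 and 633 CPM (-0.84 ± 0.11, adjusted p = 3.25e-06). No cycling value reached the lowest of the others. Ccnd1 fell by 0.43 on the log2 scale (adjusted p = 0.0316), a call lost without WT SCD, HH SCD or WT HFD, and was level on HFD, at 115 CPM in cycling cells of both libraries against 117 and 115 CPM. Ccnd3 had higher values in cycling cells of all 4 libraries, at 25.3, 22.4, 19.2 and 33.6 CPM against 18.7, 16.6, 18.2 and 16.4 CPM, but did not pass the test (log2 0.54, adjusted p = 0.0919). Myc, a growth factor response gene below the filter, stood at 0 to 3.84 CPM in cycling and 1.62 to 5.18 CPM in other cells.

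Of 18 genes of growth signals, 12 were tested, of which 0 were higher, against 8.30% of all genes, and 2 lower (16.7%, against 5.81%), namely Igf1r, the receptor of IGF1 (-0.76), and Prlr, the prolactin receptor (-0.34). Igf1r had a higher value in cycling cells of WT SCD, at 59.0 CPM against 57.8 CPM. The call of Igf1r was lost without the HH HFD library (adjusted p = 0.156), and that of Prlr without HH HFD (0.0661) or HH SCD (0.0781), and without TMM factors (0.336). The list's median log2 was -0.33, against -0.01 for all genes.

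Of 26 genes of insulin secretion, 25 were tested, of which 17 were lower (68%, against 5.81% of all genes), 0 higher and 8 not called, with a median log2 of -0.49. Of all 8336 genes tested, 704 had lower values in each of the 4 libraries and 2068 higher values in each. In this list, 10 genes had lower values in each and 3 higher values in each. Among the latter were Pcsk1, a prohormone convertase, at 270, 255, 349 and 278 CPM against 229, 223, 213 and 232 CPM (log2 0.13, adjusted p = 0.435), and the granule protein Scg2 (log2 0.03, adjusted p = 0.822). G6pc2, the islet glucose-6-phosphatase (chromosome 2, 69211073 to 69227841), stood at 219, 208, 315 and 274 CPM in cycling cells and at 506, 469, 664 and 537 CPM in the others (-1.29 ± 0.09, adjusted p = 3.52e-10). The cycling values all lay below the others. Gipr, the GIP receptor, stood at 16.9, 11.2, 15.3 and 9.01 CPM against 27.5, 24.9, 34.0 and 20.4 CPM (-1.3 ± 0.25, adjusted p = 0.000603). The cation channel Trpm5 (-0.92), the granule protein Chga (-0.91), Glp1r, the GLP-1 receptor (-0.90), the glucose transporter Slc2a2 (-0.79), the sulphonylurea receptor Abcc8 (-0.62) and the prohormone convertase Pcsk2 (-0.46) fell as well, although Trpm5 had 105.4 CPM in cycling cells of WT SCD against 92.2 CPM. Iapp, the amylin gene, had -0.18 but 0.03 without TMM factors, and its call was lost without WT SCD, HH SCD or HH HFD. Without TMM factors, 10 genes of the list were lower and 2 higher. Without HH HFD 10 were lower.

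Of 12 beta cell identity genes, all tested, 3 were lower (25%, against 5.81% of all genes) and 1 higher (8.33%, against 8.30%), with a median log2 of 0.06. Ucn3, a peptide of mature beta cells (chromosome 13, 3940688 to 3945349), stood at 186, 112, 242 and 150 CPM against 266, 272, 283 and 211 CPM (-0.81 ± 0.12, adjusted p = 4.34e-05). It was lower in every library, although the WT HFD value of cycling cells exceeded the HH HFD value of the others. Nkx6-1 fell by 0.44 and Mafa by 0.33 on the log2 scale, and Insm1, a factor of endocrine development, rose by 0.64 (adjusted p = 0.00275). In 1 library each went the other way, Mafa in WT HFD, at 403 CPM in cycling cells against 311 CPM, and Insm1 in WT SCD, at 143 CPM against 161 CPM. The Mafa call (adjusted p = 0.0394) was lost without WT SCD (0.107), without HH SCD (0.116) and without HH HFD (0.443), and the Insm1 call without HH HFD (0.0967). Without TMM factors, 4 identity genes were higher and 1 lower, a reversal of the split.

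The 13 dedifferentiation and disallowed genes gave 7 tested, of which 14.3% were higher, against 8.30% of all genes, and 42.9% lower, against 5.81%. Gc, the vitamin D binding protein, was higher (0.46), and Ttr, transthyretin (-0.50), Cd81 (-0.58) and Pyy, peptide YY (-1.15), were lower. Ttr was lower in all 4 libraries. The others went the opposite way in 1 library, Gc in WT SCD, at 25.3 CPM in cycling cells against 28.2 CPM, Cd81 in WT SCD, at 54.8 CPM against 49.9 CPM, and Pyy in WT HFD, at 104 CPM against 94.8 CPM. Gc had a log2 of -0.11 after thinning and of -0.090 with all markers of other cells removed. Without TMM factors, 2 genes of the list were higher and 2 lower. Aldh1a3, an enzyme often used as a mark of failing beta cells and below the filter, had a UMI in 22 of 90 cycling cells and 6.16% of other beta cells. Of these 22 cells, 19 were in HH HFD and 3 in HH SCD. The call of Gc was lost without HH SCD (adjusted p = 0.110), WT HFD (0.0502) or HH HFD (0.567), and that of Cd81 without each of the same 3 libraries. The Aldh1a3 level in HH HFD was 27.6 CPM in cycling and 10.4 CPM in other cells.

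Of 20 genes of the unfolded protein response, 19 were tested, of which 3 were higher (15.8%, against 8.30% of all genes) and 2 lower (10.5%, against 5.81%). The chaperones Hsp90b1 (0.49) and Dnajb11 (0.43) and the secreted factor Creld2 (0.58) rose, and the co-chaperone Dnajb9 (-0.72) and the transcription factor Xbp1 (-0.36) fell, although Xbp1 had 188 CPM in cycling cells of WT HFD against 150.5 CPM. Without TMM factors the split was 8 higher and 1 lower, and without WT SCD 5 and 1. The call of Dnajb11 was lost without HH SCD or HH HFD, and that of Xbp1 without WT SCD, HH SCD or HH HFD. Of 14 p53 targets, 12 were tested, of which 16.7% were higher and 25% lower, against the same 8.30% and 5.81%, with Cdkn1a (1.21) and Gadd45a (1.0) higher and Btg2 (-0.56), Trp53inp1 (-0.51) and Rrm2b (-0.73) lower. Without TMM factors the split reversed, to 4 higher and 1 lower. Trp53inp1 had a higher value in cycling cells of WT SCD, at 80.1 CPM against 67.5 CPM, and Rrm2b in WT HFD, at 26.9 CPM against 25.8 CPM. Gadd45a lost its call without WT SCD or WT HFD, Trp53inp1 without HH SCD, WT HFD or HH HFD, and Rrm2b without WT SCD, HH SCD or HH HFD. Of 12 genes of dissociation and early response, all tested, 9 were lower (75%, against 5.81% of all genes) and none higher, among them Dnajb1, a partner of Hsp70 (-1.05), and the AP-1 genes Junb (-0.94), Fos (-0.61) and Jun (-0.57). Of the 12 genes, 4 were lower in all 4 libraries, against 704 of all 8336 genes tested. In WT HFD, 8 had higher values in cycling cells, among them Fos, at 825 CPM against 674 CPM, and Jund, at 855 CPM against 636 CPM, and the summed level of the list was 3878 CPM against 3632 CPM. Without TMM factors 6 of the list were lower.

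Of 79 cytoplasmic ribosomal proteins, all tested, 24 were higher (30.4%, against 8.30% of all genes) and 2 lower (2.53%, against 5.81%), with a median log2 of 0.16 and Rpl14 highest (0.58). Their summed level was 41344, 44138, 46329 and 50192 CPM in cycling cells against 34120, 33255, 33128 and 39286 CPM. Without the HH HFD or HH SCD library, 9 and 10 of them were higher, and without any 1 of the 4 libraries, or without TMM factors, 0 were lower. Of 97 nuclear respiratory chain genes, 88 were tested, of which 19 were higher (21.6%, against 8.30%), 2 lower (2.27%, against 5.81%) and 67 not called, with a median log2 of 0.14. Cox7a2 (0.91) and Cox5a (0.85) rose, and Cox6a2 fell. Without HH HFD, 8 were higher. Without TMM factors, 56 ribosomal and 37 respiratory genes were higher.

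**Figure D5:**
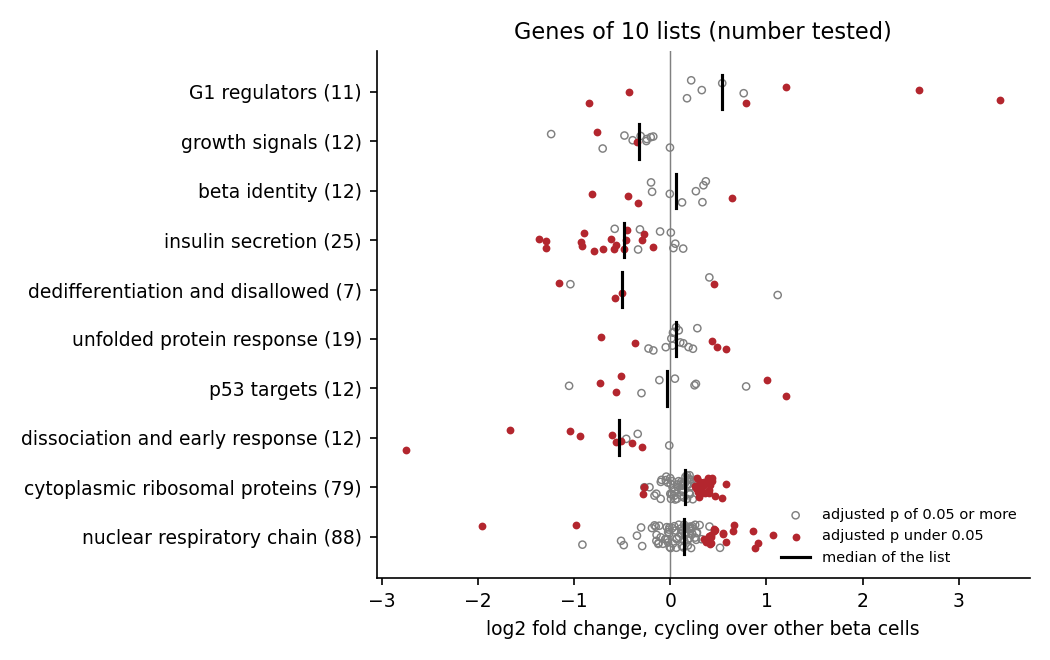
Log2 fold change of cycling over other beta cells (x axis) for the tested genes of 10 lists (y axis, number tested in brackets), with filled points for an adjusted p under 0.05, open points for the rest and a black line at the median of each list. Insulin secretion genes lay mostly below 0, with 17 of 25 called lower, and ribosomal genes slightly above, with 24 of 79 called higher.

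Whether cycling changed other genes in HH than in WT was asked with an interaction term over 2 libraries against 2. In edgeR, 0 of 8336 genes were called for the genotype term, with 304 at an unadjusted p under 0.05, and DESeq2 also called 0, with 78 at that level. For the diet term, edgeR called 0 with 374, and DESeq2 0 with 120. Other settings in edgeR gave a few calls. The genotype term had 2 with all markers of other cells removed, and the diet term 5 against the other beta cells nearest in UMIs. With 8 to 57 cycling cells in a library, an absence of calls does not show that the effects were alike.

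Levels within cycling cells were then set side by side between HH and WT of the same diet, with 1 library a group and no test. Genes had a mean of at least 100 CPM in cycling cells. On SCD, 30 of 769 genes (3.90%) differed by at least 2-fold, and on HFD 35 of 765 (4.58%). Without upper bounds on UMIs and genes the counts were 9 on each diet, and with all cells removed that held markers of other cells they were 134 and 182. The latter counts rest on 2 cycling cells in WT SCD and 5 in HH SCD, and on 1 in WT HFD and 7 in HH HFD. The rule used Cenpf, Top2a and Ube2c, and their values are a description. On SCD, Cenpf had 464 CPM in WT and 161 CPM in HH (log2 ratio -1.52), with 51 of its 110 WT UMIs in 1 of 8 cells, and Top2a 599 and 222 CPM (-1.43), with 45 of 142 in 1 cell. Cenpe, a kinetochore motor, had 190 and 67.2 CPM (-1.5), with 26 of its 45 WT UMIs in 1 cell. Hjurp, the chaperone of the centromeric histone, had 190 and 73.9 CPM (-1.36), with 18 of 45 in 1 cell, and Dtymk, thymidylate kinase, 148 and 60.5 CPM (-1.29), with 10 of 35 in 1 cell. All 16 G2 and mitosis genes of that level had lower values in HH. Their median log2 ratio was -0.51, against 0.005 over all 769 genes of that level. In the other beta cells their median was 0.07, with some near 0, such as Hmmr at 0.036 and 0.038 CPM. A gene could reach the level through WT, as Cenpe did, and all 16 were read in the same 8 WT cells. Below that level the list held both directions, such as Bub1b (0.82) and Aurka (-1.91). On HFD most G2 and mitosis genes of that level had higher values in HH. Ube2c had 46.0 CPM in WT and 344 CPM in HH (2.90), and Arl6ip1, a membrane protein of the endoplasmic reticulum, 49.9 and 360 CPM (2.85, 2.07 to 3.77). Of 9 G2 and mitosis genes of that level, 8 had higher values in HH. The share of cycling cells with 5 or more rule genes, itself counted from the rule, was 87.5%, 50%, 55.6% and 63.2%. It was lower in HH than in WT on SCD and higher on HFD. Over all 4 libraries its order differed from that of the summed G2 and mitosis level. The part of this share in the result was not tested.

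Outside the cell cycle, the highest ratios on SCD were those of Cd74 and H2-Aa, genes of antigen presentation, at 0 UMIs in WT, so that their level was at least 5.30 and 3.99 higher on the log2 scale by the floor of 3 counts. Of 223 Cd74 UMIs in HH, 222 came from 1 cell, and all 90 of H2-Aa came from 1 cell. Tmsb4x, an actin-binding peptide (1.35), had 196 of its 375 UMIs in 1 cell. Dapl1, a gene of unclear role in islets, had 75.9 CPM in WT and 235 CPM in HH on SCD (1.63, interval 0.90 to 2.44), and 288 and 659 CPM on HFD (1.20, 0.86 to 1.55). In the other beta cells its ratio was 0.42 and 1.49. Tent5a, a poly(A) polymerase, had 1.29 on SCD. On HFD, the early response genes Egr1 (-2.08), Ier2 (-2.01), Jun (-1.56) and Fosb (-1.56) and the somatostatin gene Sst (-1.51), capped by the beta cell rule, had the lowest ratios. Of the WT UMIs of Ier2, 28 of 43 came from 1 of 9 cells, and the highest count in 1 cell was 26 of 107 for Egr1, 44 of 174 for Jun, 31 of 115 for Fosb and 15 of 45 for Sst. In other beta cells the first 4 ratios were -0.68, -0.82, -0.74 and -0.87, and that of Sst was 0.41. Rgs2, a regulator of G protein signalling (1.48), and Gc (1.34) had high ratios on HFD, with 0.89 and 1.34 in other beta cells. Mafa had 403 CPM in WT and 142 CPM in HH on HFD (-1.5, interval -1.84 to -1.16), with -0.66 in other beta cells, and 333 and 341 CPM on SCD (0.03, -0.37 to 0.44).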

How the data were processed

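Single-cell 3′ RNA libraries (10x Chromium v3.1) of dissociated islets were analysed, 1 for each of the groups WT SCD, HH SCD, WT HFD and HH HFD. Per the labels, the authors ran Cell Ranger 6.0 against GRCm38. What they deposited are its filtered matrices of raw counts (UMIs for every gene in every barcode), not normalized. The study's correction for ambient RNA and its doublet removal were not applied to these files, so free RNA can add UMIs to every cell.

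Cells were filtered and called as the report states. The members and gene lists were chosen with earlier results of these data known. Counts were summed per library and class, and genes with a mean of at least 5 CPM over all beta cells were tested in edgeR 4.0.16 (R 4.3.3; TMM, quasi-likelihood, library as a block, Benjamini-Hochberg), with DESeq2 1.42.0 as an alternative. The standard error was taken from the fold change and its F value. The libraries are separate pools of mice, each from a different group. With library as a block, p-values measure how the difference between cycling and other cells varied over libraries. The fit had 3 residual degrees of freedom against 20.9 borrowed from all genes, so small p-values rest mostly on the latter. Named genes were, among called genes with at least 20 CPM and the same direction in all 4 libraries (651 genes), the 10 highest, the 10 highest outside the cell cycle lists and the 10 lowest, the 5 highest and 5 lowest HH over WT ratios per diet among genes of 100 CPM with separate Poisson intervals, and genes of the fixed lists. A count of 0 was set to a floor of 3 counts in ratios. Ratio intervals were exact conditional ones and share intervals Clopper-Pearson; UMIs of 1 cell are not independent, so intervals are too narrow. Positions came from GENCODE M21 and promoters from RefSeq.

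Doublets were scored with Scrublet in scanpy 1.11.5 and kept. On counts simulated for this comparison (8336 genes, 200 changed), the edgeR step recovered 92% of genes raised by 1 on the log2 scale, 58% lowered by 1, 100% raised by 2 and 86% lowered by 2, with 7.18% of calls false. Alternatives varied the rule, the bounds, depth, filters, scaling, doublets, markers of other cells and the libraries included. Some genes of the lists are counted but not reported here by name.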

Additional observations from a re-analysis of the deposited data

Results flagged for a closer look

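In cycling beta cells, 8 of the genes named for their HH over WT ratio pointed in opposite directions under the 2 diets. Whether the diets differ was not tested. Of the genes used to find the cells, Cenpf had a log2 ratio of -1.52 on SCD and 1.0 on HFD, Top2a -1.43 and 2.26, and Ube2c -1.03 and 2.90, values of genes the rule used and therefore a description. Of other late cell cycle genes, Cenpe had -1.5 on SCD and 0.77 on HFD, and Hjurp -1.36 and 1.09. Both were named for their low ratios on SCD, where only their WT level exceeded 100 CPM. Arl6ip1 had -0.99 on SCD and 2.85 on HFD. Tent5a had 1.29 on SCD and -1.06 on HFD, and Jun 0.49 and -1.56. Each gene was named for separate counting intervals on 1 diet, so that its interval on that diet was bound not to hold 0. For these 5 genes outside the rule, the interval on the other diet did not hold 0 either. The UMIs of 1 cell are not independent, so these intervals are too narrow. The WT values rest on 8 cells on SCD and 9 cells on HFD. On SCD, 26 of 45 WT UMIs of Cenpe and 51 of 110 of Cenpf came from 1 cell.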

How the results depend on the processing

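No paired analysis was possible because, between groups, each has 1 library and the shared replicate number only names it; cycling and other cells were compared within libraries throughout. The removal of the highest doublet scores, that of rare markers of other cells, the fit without TMM factors, the nearest comparison cells for the interactions and the HH over WT ratios without upper bounds were chosen after seeing the data. The cause of the changes below was not tested. Shares changed with thinning to 3000 UMIs to 0.830% in HH HFD, 0.402% in HH SCD and 0.0870% in WT HFD, without upper bounds to 2.90% in HH HFD, 1.5% in WT HFD and 0.834% in WT SCD, with at least 2 of the 8 genes to 2.66% in HH HFD, and with all markers of other cells removed to 0.941% in HH HFD. That removal takes away most beta cells, since 84.7% hold Krt7 and 54.2% C1qa. Leaving out 1 library gave 332 to 613 genes higher and 188 to 399 lower in cycling cells. Higher and lower genes numbered 42 and 65 after thinning, 1395 and 1157 without upper bounds, 99 and 155 with all markers of other cells removed, and 1326 and 230 without TMM factors. Lower genes numbered 231 with DESeq2, 896 without a filter and 279 without the library in the model. The genotype interaction had 2 calls with all markers of other cells removed, and the diet interaction 5 against the nearest cells. Genes past 2-fold between HH and WT numbered 134 on SCD and 182 on HFD with all markers of other cells removed, and 9 on each diet without upper bounds.

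Reversed log2 values in cycling over other beta cells were, after thinning, Dnajb11 -0.13, E2f1 -0.33, Gc -0.11, Hsp90b1 -9.08e-05 and Pttg1 0.35, with all markers of other cells removed Gc -0.090 and Pttg1 0.57, and without TMM factors Iapp 0.027. Reversed HH over WT ratios were, with all markers of other cells removed, Cd74 -1.32 and H2-Aa -1.32 on SCD and Fosb 0.69 and Gc -0.18 on HFD, and with rare markers removed Cd74 -2.46 and H2-Aa -0.88. The low number of cycling cells, 8 to 16, limits what the 3 libraries other than HH HFD can show.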
